A study of Mus musculus with 6 samples.

Results

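The Polycomb complex genes are 34 mouse genes taken by name from a list of the subunits of Polycomb repressive complex 2 (PRC2), Polycomb repressive complex 1 (PRC1) and the Polycomb deubiquitinase PR-DUB. All 34 were found among 21911 protein-coding gene symbols of the GENCODE vM21 annotation, and every one is accounted for here. Open chromatin was measured by ATAC-seq, in which the Tn5 transposase tags accessible DNA, in mouse embryonic fibroblasts (MEFs) of strain C57BL/6J from E13.5 embryos, cells that grow out of minced embryos after the head and red organs are removed. The 4 libraries came from MEFs at passage 1 in 20% oxygen (Norm-Pro), senescent MEFs in 20% oxygen (Norm-Sen), MEFs at passage 1 in 3% oxygen (Hyp-Pro) and MEFs immortalized in 3% oxygen (Hyp-Imm). Binding of the transcription factor Tfcp2l1 was measured by ChIP-seq with the antibody AF5726 in senescent MEFs in 20% oxygen (ChIP Norm) and immortalized MEFs in 3% oxygen (ChIP Hyp), also of strain C57BL/6J. Since each condition has 1 library, replicate error is unknown and conditions could not be tested against each other, and the intervals given are 95% exact Clopper-Pearson intervals that cover counting error only. The study asked which genes Tfcp2l1 binds and which chromatin opens as MEFs senesce or become immortal, and the question here is where the peaks of each assay lie in and around the Polycomb genes.

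PRC2 places methyl groups on lysine 27 of histone H3 through its catalytic subunits Ezh1 and Ezh2, with Eed and Suz12 as the scaffold and Rbbp4 and Rbbp7 as histone-binding subunits. PRC1 attaches ubiquitin to histone H2A through Ring1 or Rnf2, which pair with 1 of the PCGF proteins, and PR-DUB removes that ubiquitin. In fibroblasts both complexes are known for silencing the Ink4a/Arf locus, whose products drive senescence.

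The libraries differed in depth, and the labels of the ATAC-seq libraries disagree with their file names. The peak lists held 69122 peaks for Norm-Pro, 61408 for Norm-Sen, 47523 for Hyp-Pro and 37770 for Hyp-Imm, and the steps of the fold values give a background of 1.24, 1.77, 0.956 and 0.445 reads per position, so that Hyp-Imm had 25.2% of the background depth of Norm-Sen. Each library is called by its sample label. By the file names the library labelled Norm-Pro would be Hyp-Imm, that labelled Norm-Sen would be Hyp-Pro, that labelled Hyp-Pro would be Norm-Pro and that labelled Hyp-Imm would be Norm-Sen, so that every direction between conditions below rests on the labels. Of 12 fibroblast marker genes, between 4 and 8 had a promoter peak in a library, with Col1a2, Vim, Twist1 and Fn1 open in all 4 and Col3a1 and Prrx1 in none. Of 19 markers of blood, endothelial, epithelial and neural cells only Kdr had a promoter peak in all 4 libraries. No promoter peak was found for 8 of them, Ptprc, Cd3e, Krt5, Krt8, Esrp1, Tubb3, Snap25 and Gfap. The others had one in some libraries, such as the blood genes Spi1 in 3 and Tyrobp in 2.

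Promoters of Polycomb genes were open more often than those of protein-coding genes at large. A promoter peak is an ATAC-seq peak within 1 kb of an annotated start site of transcription (TSS) of the gene, on either side. Among the Norm-Pro peaks, 30 of the 34 genes had a promoter peak (88.2%, interval 72.5 to 96.7), against 53.4% of all protein-coding genes, which include genes silent in fibroblasts. The Norm-Sen count was also 30 (background 51.6%), that of Hyp-Pro 31 (91.2%, interval 76.3 to 98.1, background 48.2%) and that of Hyp-Imm 23 (67.6%, interval 49.5 to 82.6, background 34.1%). A peak in all 4 libraries was found for 20 genes (58.8%, background 25.8%), in 3 for 9 genes (background 16.5%), in 2 for 2 genes (background 10.9%), in 1 for 3 genes (background 12.8%) and in none for 0 genes (background 34%). The fixed comparison list of 44 Polycomb partners and opposing factors had promoter peaks in 35, 36, 32 and 25 genes in the same order of libraries, and 19 of them (43.2%) in all 4.

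**Figure D1:**
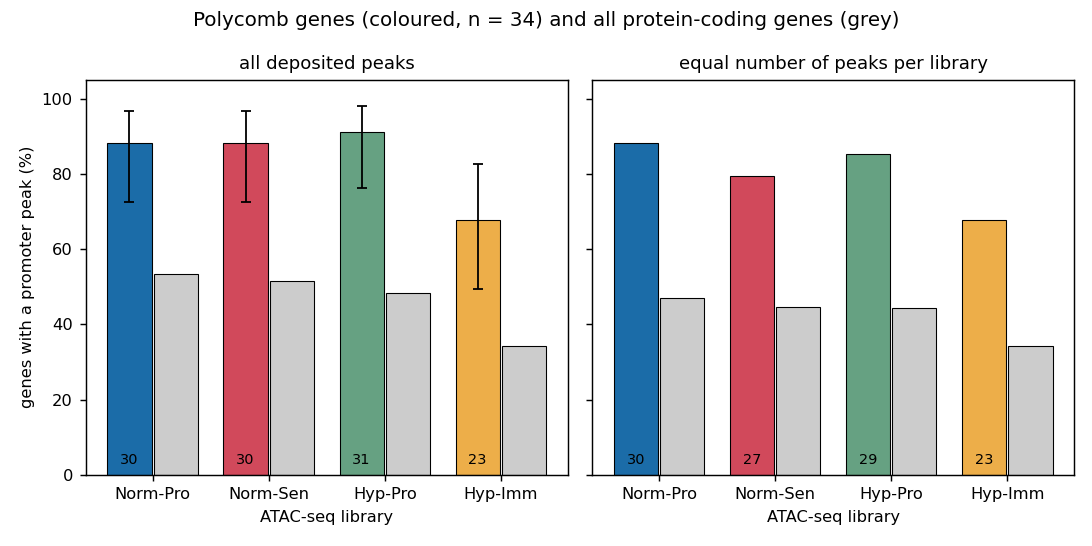
Share of genes with an ATAC-seq promoter peak (y axis, %) in each library (x axis), for the 34 Polycomb genes in colour with their number at the foot of the bar and for all protein-coding genes in grey, from all deposited peaks on the left and from lists of equal length on the right. Error bars on the left are 95% exact intervals over the 34 genes; the coloured bar stands above the grey one in every library and is lowest in Hyp-Imm, at 67.6%.

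Hyp-Imm lacked 11 of the promoter peaks, those of Ezh1, Mtf2, Phf1, Ring1, Pcgf2, Pcgf6, Cbx6, Cbx7, Bcor, L3mbtl2 and Bap1. Of the 27 Polycomb genes open in the other 3 libraries, Hyp-Imm lacked 7 (25.9%, interval 11.1 to 46.3), against 31.8% of all genes open in the other 3 libraries, which lies inside that interval. The same count was 1 of 21 in Norm-Pro (Cbx2, background 3.32%), 1 of 21 in Norm-Sen (Pcgf1, background 5.33%) and 0 of 20 in Hyp-Pro (background 7.56%). When each list was limited to its 37770 peaks of highest −log10 q, the counts were 30, 27, 29 and 23 (47.1%, 44.5%, 44.4% and 34.1% of all genes). The part of depth in the lower count of Hyp-Imm was not tested.

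The 6 core genes of PRC2 were open in nearly every library. Their promoter peaks numbered 6 in Norm-Pro, Norm-Sen and Hyp-Pro and 5 in Hyp-Imm. The −log10 q of a peak, the strength of the call within its own library, is not comparable between libraries of different depth, so each promoter is also given as a percentile among the genes with a promoter peak in the same library. Where 4 values follow each other they stand in the order of the libraries at the start, from Norm-Pro to Hyp-Imm. Suz12, the subunit on which the complex is assembled, had −log10 q values of 17.3, 7.91, 9.28 and 10.5. Its median percentile over the libraries was 87.0, the second of the 34 genes, and the peak lay at chr11:79992740-79993490, over the TSS, in all 4.

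Ezh2, the catalytic subunit of dividing cells, had a promoter peak in all 4 libraries but not at the same place. Its −log10 q was 15.3, 16.7, 7.44 and 4.51. The percentiles of these peaks were 93.9, 95.9, 65.7 and 57.8, higher in both libraries labelled 20% oxygen, which the file names place in 3% oxygen. In Norm-Pro, Norm-Sen and Hyp-Pro the strongest peak lay at chr6:47594939-47595302, which covers the TSS on the minus strand, and a weaker peak lay at chr6:47594263-47594599, inside the gene. The stronger Hyp-Imm peak lay between them, at chr6:47594645-47594812, and overlapped neither. A second promoter peak of Hyp-Imm, chr6:47540760-47540938 (−log10 q 2.89), lay at an internal TSS and was in no other library. Eed, Phc3 and Yaf2 were the other genes with a promoter peak in every library and no region common to all 4, while 16 genes had such a region.

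Ezh1, the paralog of Ezh2 that is known for its expression in resting cells, had −log10 q values of 11.2, 8.46 and 4.11 in the first 3 libraries and no promoter peak in Hyp-Imm. The RefSeq windows from 250 bases before to 50 bases after the TSS (GRCm38.p6, both genes on the minus strand) are shown because this pair of catalytic subunits shares a motif. Capitals mark matches to letters of NRF1 that leave a middle base free, NF-Y (CCAAT) and E2F (TTTGGCGC or TTTCCCGC), each searched on both strands. The windows are chr6:47594981-47595280 for Ezh2 and chr11:101226414-101226713 for Ezh1.
Ezh2 promoter: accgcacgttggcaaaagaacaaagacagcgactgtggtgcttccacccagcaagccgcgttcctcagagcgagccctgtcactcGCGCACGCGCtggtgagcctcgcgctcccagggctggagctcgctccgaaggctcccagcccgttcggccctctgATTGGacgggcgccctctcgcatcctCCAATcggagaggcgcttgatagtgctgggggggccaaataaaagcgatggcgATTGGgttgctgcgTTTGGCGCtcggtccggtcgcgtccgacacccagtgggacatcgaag
Ezh1 promoter: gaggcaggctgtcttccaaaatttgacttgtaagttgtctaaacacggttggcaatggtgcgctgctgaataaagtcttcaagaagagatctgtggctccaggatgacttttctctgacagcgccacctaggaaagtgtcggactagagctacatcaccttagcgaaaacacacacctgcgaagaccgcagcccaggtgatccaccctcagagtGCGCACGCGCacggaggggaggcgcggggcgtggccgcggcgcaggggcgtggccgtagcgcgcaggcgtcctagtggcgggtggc
Both windows hold an NRF1 match, which starts 165 bases before the TSS in Ezh2 and 36 bases before it in Ezh1. The Ezh2 window also holds 3 NF-Y matches and an E2F match that starts 3 bases after the TSS, and neither is in the Ezh1 window.

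Such windows were found for 30 of the 34 genes, 43 windows in all, and were compared with 32851 windows of 27025 genes. This background is wider than the 21911 protein-coding genes used for the peak shares, and the windows were not limited to protein-coding genes. Their median GC content was 64.3%, against 52.7%, and 81.4% of them had a CpG ratio (observed over expected from C and G content) of at least 0.6, against 35.8%. NRF1 letters were in 7 of 43 windows (16.3%, all windows 4.60%), those of Ezh1, Ezh2, Rbbp7, Pcgf3, Pcgf6, Cbx7 and Phc3. E2F letters were in 3 windows (6.98%, all windows 1.56%), those of Ezh2, Suz12 and Phf19. The Sp and Klf letters GGGCGG were in 67.4% (all windows 35.7%) and the E-box CACGTG in 18.6% (7.15%), while the ETS letters CCGGAAG were in 4.65% (8.86%) and CCAAT in 39.5% (37.4%). The core of the hypoxia response element, ACGTG, which lies inside every E-box match, was in 25.6% (19.6%). GC-rich letters are more frequent in GC-rich windows, and the shares were not matched on GC content.

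Among the other core genes, Rbbp4, Rbbp7 and Eed were open in all 4 libraries. Eed had −log10 q values of 6.08, 12.9, 9.40 and 2.1, the last at percentile 3.74 of Hyp-Imm. The promoter of Rbbp4 cannot be told apart from that of Zbtb8os, which starts 325 bp away on the opposite strand. The same holds for Bap1 with Phf7 (133 bp, opposite strand) and for Cbx6 with Npcd, which share a TSS on the same strand.

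Of the 5 accessory subunits of PRC2, 4, 5, 4 and 3 had a promoter peak. Jarid2, which helps PRC2 to bind chromatin, had the highest median percentile of all 34 genes, 91.7, with −log10 q values between 10.2 in Hyp-Imm and 14.9 in Norm-Sen. Aebp2 was also open in all 4 libraries, with values of 11.3, 6.57, 8.14 and 3.52. The Polycomb-like proteins Mtf2, Phf1 and Phf19, which carry a Tudor domain and PHD fingers, had lower median percentiles of 29.4, 17.9 and 18. Mtf2 had values of 4.91, 4.36 and 3.55 and Phf1 of 7.55, 3.33 and 3.68 in the first 3 libraries, and neither had a promoter peak in Hyp-Imm. Phf19 had a promoter peak in Norm-Sen (−log10 q 3.33) and Hyp-Imm (2.91) and in neither passage 1 library. The 2 peaks of Phf19 are 100 bp wide and lie 149 bp and 940 bp from the nearest TSS, so they do not overlap. A region 8.79 kb inside Phf19, chr2:34904846-34905533, was open in all 4 libraries with values of 13.8, 11, 13.7 and 9.88, each above every promoter peak of the gene. Phf1, Phf19 and Phc3 had the lowest median percentiles of the 34 genes, 17.9, 18 and 20.4.

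**Figure D2:**
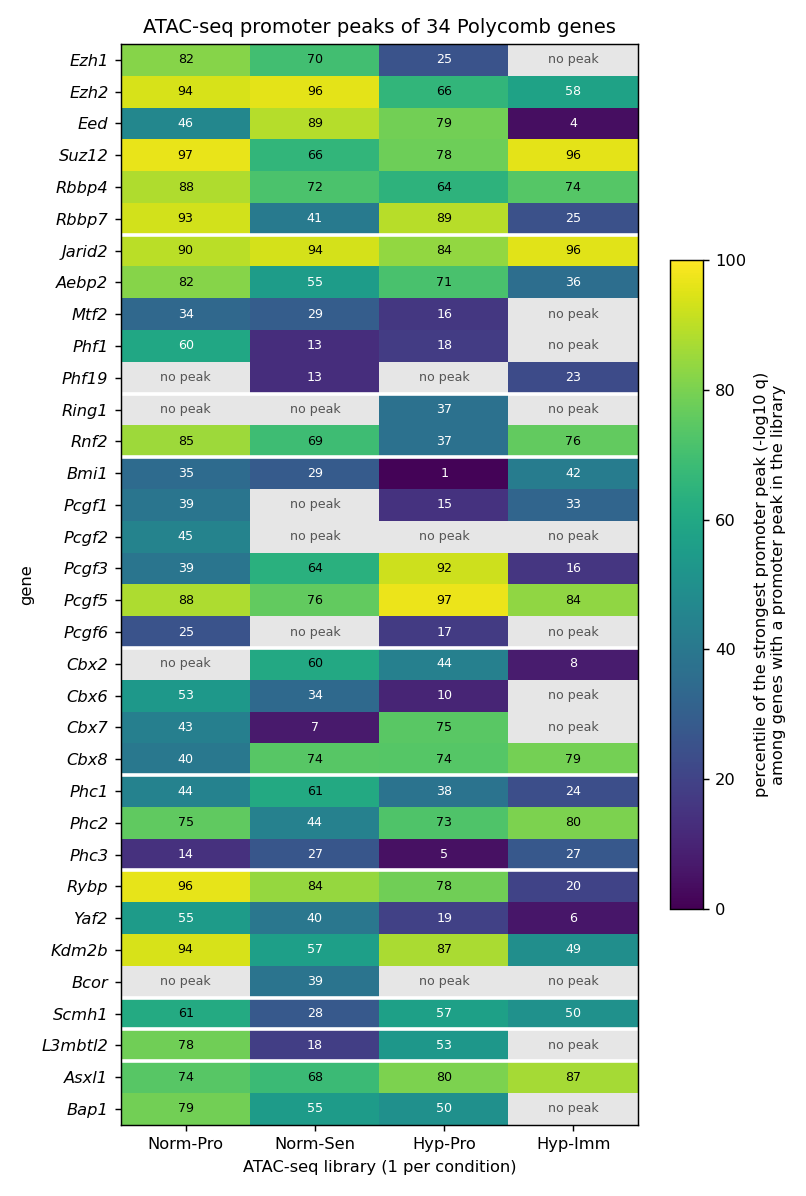
Percentile of the strongest promoter peak of each of the 34 Polycomb genes (rows, grouped by complex) among all genes with a promoter peak in the same ATAC-seq library (columns), by −log10 q; grey cells have no promoter peak. Jarid2 and Pcgf5 are above 75 in every library, Suz12 in all but Norm-Sen (65.9), and 11 cells are grey in Hyp-Imm.

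Of the catalytic subunits of PRC1, Rnf2 was open in all 4 libraries (−log10 q 12.1, 8.35, 4.87 and 5.80) and its paralog Ring1 in Hyp-Pro alone (4.88). A region 3.42 kb upstream of Ring1, chr17:34027971-34028231, was open in Norm-Pro, Hyp-Pro and Hyp-Imm and covers a TSS of the neighbouring gene H2-Ke6.

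The 6 PCGF genes, which name the variants of PRC1, had promoter peaks in 6, 3, 5 and 4 members. Bmi1 (PCGF4), Pcgf3 and Pcgf5 were open in all 4 libraries. Bmi1, known as a repressor of Ink4a/Arf, had low values of 5.00, 4.31, 2.28 and 3.78, and a region 4.69 kb upstream had 13.9, 12.9, 3.4 and 2.29, above the promoter in all libraries but Hyp-Imm. That region covers a TSS of the neighbouring gene Commd3. Pcgf1 had values of 5.36 in Norm-Pro, 3.46 in Hyp-Pro and 3.36 in Hyp-Imm and no promoter peak in Norm-Sen. Pcgf6 was open in both passage 1 libraries, with 4.21 in Norm-Pro and 3.64 in Hyp-Pro, and in neither later one. Its peaks lay 58 bp before and 536 bp after the nearest TSS and did not overlap. Pcgf2 (Mel18), the closest paralog of Bmi1, had promoter peaks in Norm-Pro alone, of 5.91 and 4.86. Pcgf1, Pcgf2 and Pcgf6 were the 3 genes with a promoter peak in Norm-Pro and not in Norm-Sen (8.82%, background 9.31%).

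Among the CBX genes, whose chromodomains read the PRC2 mark, Cbx8 was open in all 4 libraries (5.48, 9.17, 8.50 and 6.14). Cbx2 had no peak in Norm-Pro and values of 7.17, 5.39 and 2.39 in the other libraries. Cbx6 (6.76, 4.70 and 3.12) and Cbx7 (5.74, 2.92 and 8.65) were open in the 3 deeper libraries. The Norm-Sen peak of Cbx7, chr15:79931739-79931857, did not overlap that of Norm-Pro and Hyp-Pro and was 79.8% repeat-masked. Cbx2 and Cbx8 are neighbours, and 1 region between them, chr11:119034286-119034420, counts for both.

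The 4 PHC and SCM genes Phc1, Phc2, Phc3 and Scmh1, which hold the polymerizing SAM domains of PRC1, were open in every library, Phc3 weakly with 3.39, 4.14, 2.73 and 3.15. Of the variant PRC1 genes, Rybp, Yaf2 and Kdm2b were open in all 4 libraries, and Rybp ranged from 16.8 in Norm-Pro to 2.89 in Hyp-Imm. L3mbtl2 (10.5, 3.64 and 6.11) had no promoter peak in Hyp-Imm. Bcor, the corepressor of the PCGF1 complex, had promoter peaks in Norm-Sen alone, with 5.00 at the 5′ end. Of PR-DUB, Asxl1 was open in all 4 libraries (9.64, 8.23, 9.67 and 7.32), and the catalytic subunit Bap1 (10.6, 6.52 and 5.86) had no promoter peak in Hyp-Imm.

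In several genes the open promoter was not at the annotated 5′ end. Kdm2b, the CxxC protein that brings PRC1 to CpG islands, had an internal promoter 89.5 kb from its 5′ end with −log10 q values of 15.2, 6.73, 11.4 and 4.02, while its 5′ end had a peak in Norm-Sen alone (2.54). Pcgf5 was strongest at an internal promoter 61.4 kb from its 5′ end, with 12.8, 9.54, 17.2 and 6.78. Its 5′ end had values of 5.12, 4.87 and 3.84 and no peak in Hyp-Imm. All promoter peaks of Cbx7 lay at an internal TSS 38.5 kb from the 5′ end, which had none. Phc2 was open at an internal promoter 72.9 kb in, in all 4 libraries (8, 5.49, 8.34 and 4.32), and at its 5′ end in Norm-Pro (9.92) and Hyp-Imm (6.27). Counting the 5′ end alone gave 28, 28, 28 and 20 genes with a promoter peak (background 49.3%, 47.6%, 44.2% and 30.9%).

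Between conditions, promoter peaks in 1 library of a pair and not in the other were counted beside the same share of all genes. In Norm-Sen and not in Hyp-Imm, 8 of the 34 genes had a promoter peak (23.5%, background 22.1%), and in Hyp-Imm and not in Norm-Sen 1, Pcgf1 (2.94%, background 4.68%). In Norm-Sen and not in Norm-Pro there were 3, Phf19, Cbx2 and Bcor (8.82%, background 7.53%). In Hyp-Pro and not in Hyp-Imm there were 9 (26.5%, background 19.5%), and in the other direction 1, Phf19 (2.94%, background 5.52%). In Norm-Pro and not in Hyp-Pro there was 1, Pcgf2 (2.94%, background 11.5%), and in the other direction 2, Ring1 and Cbx2 (5.88%, background 6.27%). The shares depend on the peak threshold: with a −log10 q of at least 3, Norm-Sen and not Hyp-Imm held 14 genes (41.2%, all genes 24.7%) and Hyp-Pro and not Hyp-Imm 15 (44.1%, all genes 22.5%). With lists of equal length, Norm-Sen and not Hyp-Imm held 6 genes (17.6%, all genes 17.1%). Hyp-Pro and not Hyp-Imm then held 9 (26.5%, all genes 16.8%). A fixed cut on −log10 q does not act alike on libraries of different depth, and the part of depth in these shares was not tested. By the file names the first pair gives 2 genes in Norm-Sen and not in Hyp-Imm (5.88%, all genes 3.92%) and 9 in the other direction (26.5%, all genes 23.1%), so the side with more genes depends on which names are right.

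Ranked within a library, the promoter peaks of the Polycomb genes had median percentiles of 67.6 (95% interval of the median over genes 46.2 to 81.8), 55.9 (39.5 to 65.9), 57.0 (37.3 to 73.8) and 42.1 (24.8 to 73.8), where 50 is the middle of all genes with a promoter peak. All 4 intervals hold 50.

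Most open regions in and around the genes were seen in a single library. Peaks of the 4 libraries that overlap or touch were merged, which gave 211 regions in the genes or within 5 kb of them. Of these 150 (71.1%) were in 1 library, against 80.6% of the regions near all protein-coding genes, and 23 (10.9%, against 5.12%) were in all 4. All 34 genes had a peak in the gene or within 5 kb in Norm-Pro (background 73.4%) and Hyp-Pro (67.3%), 32 in Norm-Sen (71.5%) and 30 in Hyp-Imm (56.3%). Jarid2 had the most regions with 18, followed by Pcgf5 and Kdm2b with 15 each, and these are long genes of 192, 113 and 119 kb. The median gene length was 38.2 kb for the Polycomb genes and 17.4 kb for all genes, and counts of genes with a region were not matched on length. Per 10 kb of gene and flanks the median was 1.11 regions for the Polycomb genes and 0.884 for all genes. Away from the promoters, 127 regions lay over 1 kb from every TSS of the gene, 107 of them in 1 library (84.3%, all genes 89.1%). At least 1 such region was found in 23 of the 34 genes in Norm-Pro (background 53.1%) and 22 in Norm-Sen (50.9%). The 3% oxygen libraries had 18 genes with one at passage 1 (44.2%) and 20 after immortalization (37.7%). Only 5 regions outside the promoters were in all 4 libraries, 2 inside Jarid2, 1 inside Phf19 and 1 each beside Bmi1 and Phf1, where they cover a TSS of Commd3 and of Cuta.

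**Figure D3:**
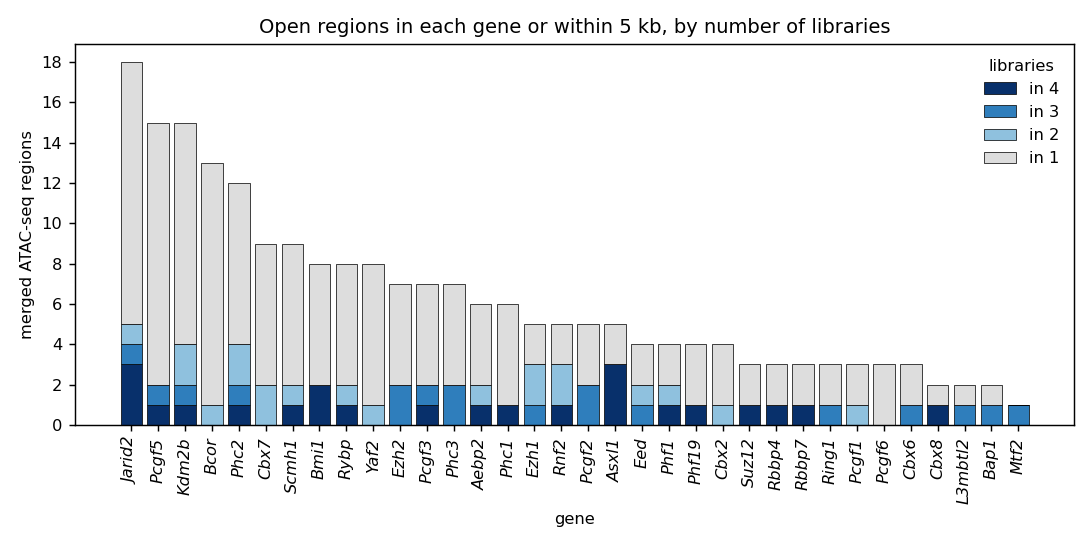
Number of merged ATAC-seq regions in each Polycomb gene or within 5 kb of it (y axis), stacked by the number of libraries that hold the region (shade), with genes in order of their total (x axis). Jarid2 leads with 18 regions, 13 of them in 1 library.

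Tfcp2l1 ChIP-seq peaks lay within 200 kb of a TSS of 4 Polycomb genes in ChIP Norm (Ezh2, Jarid2, Bmi1 and Pcgf2; 11.8%, background 8.29%) and of 5 in ChIP Hyp (these and Phf19; 14.7%, background 12.1%). Of the 44 partners and opposing factors, 4 and 5 had such a peak. Near the Polycomb genes lay 9 of 393 peaks and 8 of 612 peaks, and 6 in each library overlapped a peak of the other library. Of all ChIP-seq peaks, 165 (42.0%) in ChIP Norm and 125 (20.4%) in ChIP Hyp overlapped a tRNA gene, a target of RNA polymerase III. Near the Polycomb genes, 3 and 2 peaks lay on a tRNA gene, 4 and 4 on a copy of the 4.5S RNA gene Rn4.5s, another RNA polymerase III gene, and 1 and 1 on the repeated sequence in Jarid2 described below. The remaining peak of ChIP Norm lay 99.6 kb downstream of the nearest TSS of Ezh2 and 12.3 kb from the nearer gene Cul1 (chr6:47440996-47441169, fold 6.34, −log10 q 4.86). The remaining peak of ChIP Hyp lay 127 kb downstream of the TSS of Phf19 and 12.2 kb from the nearer gene Rabepk (chr2:34787273-34787533, fold 4.86, −log10 q 2.72). Neither overlapped an ATAC-seq peak.

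At Ezh2, no ChIP-seq peak lay in the gene. The peaks on its upstream side lay between 55.6 and 183 kb away, in an array of 18 copies of Rn4.5s, and all but the nearest were closer to Pdia4 than to Ezh2. Their −log10 q in ChIP Norm was 43.4 at 55.6 kb (rank 12 of 393), 15.0 at 145 kb, 40.3 at 153 kb (rank 16) and 20.1 at 183 kb. The peaks at 55.6 and 183 kb overlapped ATAC-seq peaks in all 4 libraries. In ChIP Hyp the −log10 q was 7.49 at 55.6 kb, 27.4 at 153 kb (rank 36 of 612), 7.63 at 177 kb and 6.62 at 183 kb. The peak of ChIP Hyp at 153 kb, chr6:47748361-47748651, is printed on the plus strand of GRCm38.p6 with the copy in capitals. Below it stands the span of the RefSeq gene Rn4.5s, chr6:47654921-47655094, likewise printed on the plus strand of the reference. The strand from which the gene is transcribed is not given here, so the printed letters may be the reverse complement of its RNA.
ChIP Hyp peak upstream of Ezh2: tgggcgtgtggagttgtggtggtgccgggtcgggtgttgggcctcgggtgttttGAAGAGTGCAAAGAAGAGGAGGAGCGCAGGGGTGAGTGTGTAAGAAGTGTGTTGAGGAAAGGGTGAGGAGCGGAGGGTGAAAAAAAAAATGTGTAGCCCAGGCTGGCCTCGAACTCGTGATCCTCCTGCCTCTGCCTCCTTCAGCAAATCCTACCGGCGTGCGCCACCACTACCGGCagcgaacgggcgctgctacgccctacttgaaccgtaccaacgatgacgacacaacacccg
Rn4.5s: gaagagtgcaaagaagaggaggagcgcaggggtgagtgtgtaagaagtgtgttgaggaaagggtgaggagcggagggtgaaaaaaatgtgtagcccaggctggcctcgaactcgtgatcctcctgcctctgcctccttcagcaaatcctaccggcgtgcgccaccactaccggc
The copy is 98.3% identical to Rn4.5s over 177 aligned bases. Of the 18 copies, 11 were identical to Rn4.5s and none of these lay under a ChIP-seq peak, whereas 5 of the 7 diverged copies did, 3 of them in both libraries.

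How far a short read can be placed in the array was described by the share of 49-base words that occur once on the reference chromosomes, 49 being the read length in the study's ATAC-seq methods. It was 0.0% in each of the 11 identical copies. In the 5 copies under a ChIP-seq peak it was 30.4%, 38.4%, 33.3%, 19.6% and 82.5%, and in the 2 diverged copies without a peak 21.4% and 10.3%. The whole peaks held between 17.7% and 95.8% of such words, and up to 46 copies of a word. The median share was 92.1% over the 383 ChIP Norm peaks on the reference chromosomes and 100% over the 596 of ChIP Hyp. The part of read placement in the choice of copies was not tested.

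**Figure D4:**
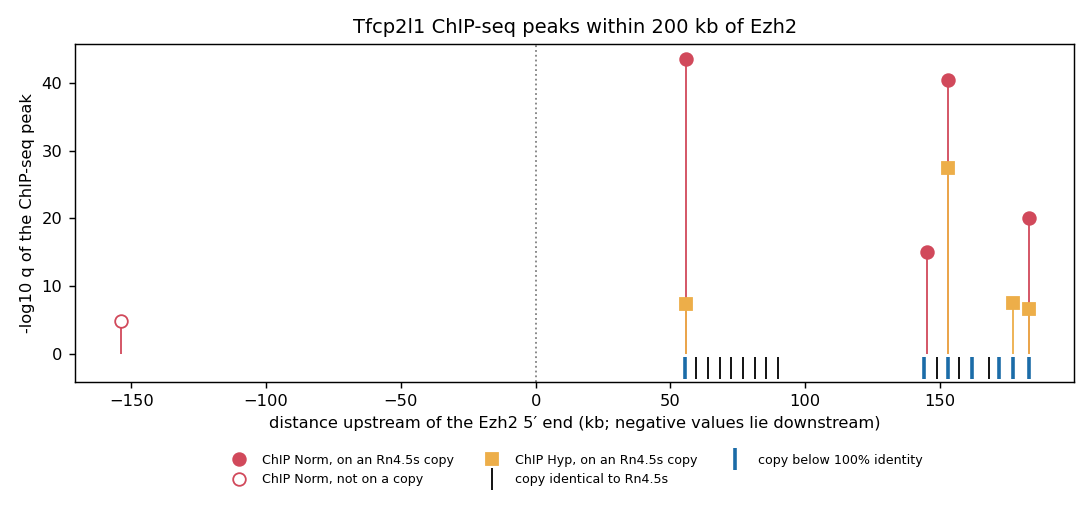
Tfcp2l1 ChIP-seq peaks within 200 kb of Ezh2 by distance from its 5′ end (x axis, kb, upstream to the right) and −log10 q (y axis), circles for ChIP Norm and squares for ChIP Hyp, filled on an Rn4.5s copy. Ticks under the peaks mark the 18 copies, black where identical to Rn4.5s and blue where diverged; every filled symbol stands over a blue tick.

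At Jarid2, 1 peak in each ChIP-seq library lay inside the gene, in an intron 140 kb from the 5′ end and 28.9 kb past the nearest, internal TSS. In ChIP Norm it had a fold of 10.8 and a −log10 q of 13.4 (rank 154 of 393), and in ChIP Hyp a fold of 17.6 and a −log10 q of 30.3 (rank 29 of 612). The same place was the strongest ATAC-seq region of any Polycomb gene, at chr13:44869526-44869745, with −log10 q values of 75.7, 63.4, 51.9 and 49.2. These ranked 16, 22, 27 and 25 among all peaks of their libraries. A second region beside it, chr13:44869866-44870067, was also open in all 4 (20.3, 21.4, 17.9 and 13.2). The span of both ChIP-seq peaks, chr13:44869513-44869804, is printed on the plus strand of GRCm38.p6, with the 65 bases that the reference masks as a repeat in lower case and the other 227 bases in capitals, because the unmasked bases recur elsewhere.
Jarid2 intron: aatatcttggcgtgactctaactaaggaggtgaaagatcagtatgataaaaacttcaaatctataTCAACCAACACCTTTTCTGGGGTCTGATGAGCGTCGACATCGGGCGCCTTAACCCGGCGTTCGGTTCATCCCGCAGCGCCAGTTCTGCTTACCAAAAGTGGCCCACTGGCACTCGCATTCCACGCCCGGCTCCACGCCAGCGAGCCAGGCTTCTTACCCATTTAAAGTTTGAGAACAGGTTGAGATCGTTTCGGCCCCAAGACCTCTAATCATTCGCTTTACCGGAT
An alignment found 16 other places on the chromosomes with 92.2% to 98.3% identity over at least 80 bases of this span. Of these, 5 had an ATAC-seq peak in all 4 libraries and 11 had none, and 0 had a ChIP Norm peak and 2 a ChIP Hyp peak. Of the 49-base words, 91.3% in the ChIP Norm peak, 81.2% in the ChIP Hyp peak, 97.7% in the stronger ATAC-seq region and 54.5% in the second one occurred once on the reference chromosomes. Copies outside the assembled chromosomes, such as those of ribosomal RNA genes, were not counted, so these shares can overstate how uniquely a read is placed. The likeness of this sequence to ribosomal RNA was not measured. The part of the other copies in these peaks was not tested.

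**Figure D5:**
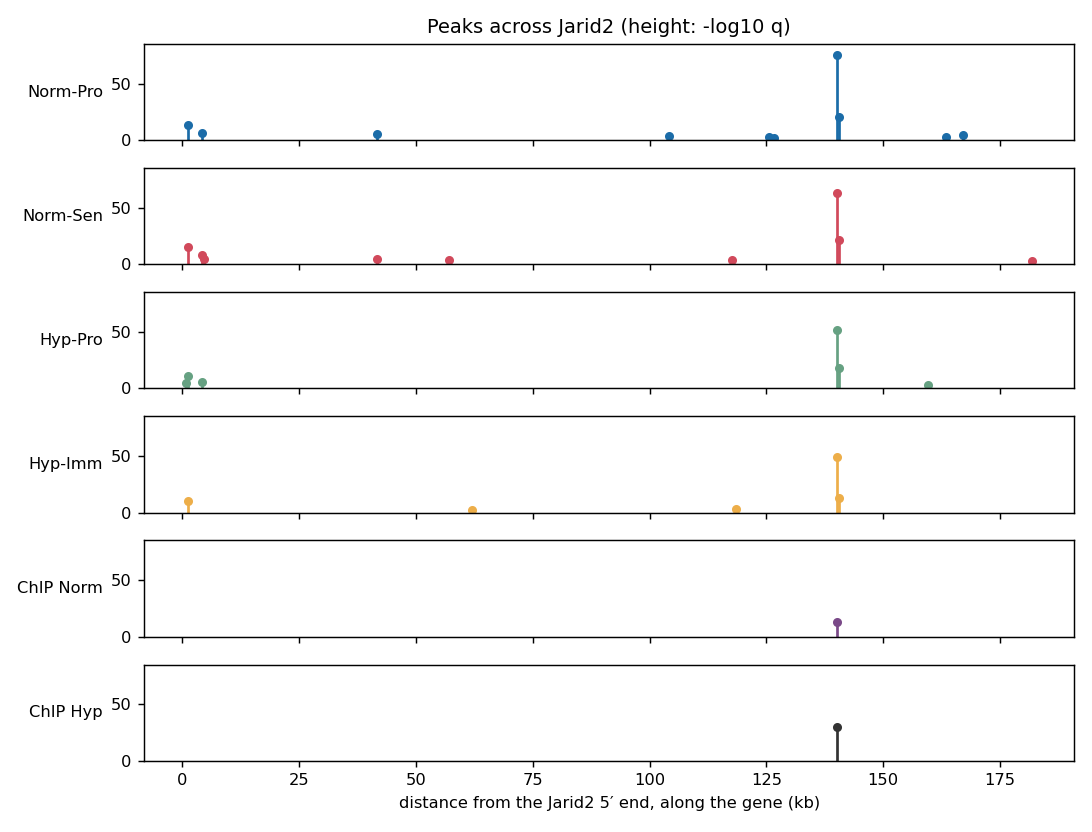
Peaks across Jarid2 by distance from its 5′ end (x axis, kb) and −log10 q (y axis), with a row for each ATAC-seq library and each ChIP-seq library. The intron region at 140 kb is the tallest point of all 4 ATAC-seq rows and the only peak of the ChIP-seq rows.

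The ChIP-seq peaks of Bmi1 and Pcgf2 lay on tRNA genes. For Bmi1 a peak on the tRNA gene n-TNgtt9, 89.9 kb upstream, had −log10 q values of 7.54 in ChIP Norm and 5.18 in ChIP Hyp, with Commd3 as the nearer gene. For Pcgf2 a peak on n-TNgtt8, 2.02 kb upstream, had 12.2 in ChIP Norm and 9.29 in ChIP Hyp, and the TSS of Psmb3 lay 0.887 kb from its summit. A second peak of ChIP Norm lay on n-TCgca56, 96.6 kb upstream of Pcgf2 and 1.88 kb from Lasp1, with 9.68. None of these peaks overlapped an ATAC-seq peak. The tRNA genes are printed 5′ to 3′ along the gene, n-TNgtt9 at chr2:18587044-18587117 and n-TNgtt8 at chr11:97702449-97702522 on the minus strand and n-TCgca56 at chr11:97797072-97797143 on the plus strand. Capitals mark exact matches to a fixed string for the B box, the internal promoter element that transcription factor TFIIIC binds. The string had no exact match in n-TCgca56, which does not show that this gene lacks a B box.
n-TNgtt9 (tRNA-Asn): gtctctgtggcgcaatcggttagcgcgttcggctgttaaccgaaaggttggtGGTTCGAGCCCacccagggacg
n-TNgtt8 (tRNA-Asn): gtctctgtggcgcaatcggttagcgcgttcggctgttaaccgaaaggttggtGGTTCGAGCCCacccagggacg
n-TCgca56 (tRNA-Cys): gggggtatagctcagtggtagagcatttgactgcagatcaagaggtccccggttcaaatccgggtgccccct
The 2 tRNA-Asn genes have the same sequence, and 83.9% and 89.8% of the 49-base words of their ChIP Norm peaks near Bmi1 and Pcgf2 occurred once. The B box letters were in 229 of 403 tRNA genes (56.8%).

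The Tfcp2l1 consensus, with at most 2 mismatches and on both strands, was looked for in 200 bp centred on each region or peak summit. It was in 0 of the 211 ATAC-seq regions of Polycomb genes (upper limit of the interval 1.73%), against 1143 of all 170337 regions (0.671%). It was in 1 of the 9 ChIP Norm peaks near Polycomb genes, the peak on n-TCgca56, and in 0 of the 8 ChIP Hyp peaks. The sequence of that tRNA gene itself holds the consensus at this setting. The shares over all peaks on the assembled chromosomes were 7.57% of 383 in ChIP Norm and 4.70% of 596 in ChIP Hyp. None of the 43 RefSeq promoter windows of the Polycomb genes held it (all windows 1.41%).

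Without the peaks on tRNA genes, 2 Polycomb genes were left in ChIP Norm and 3 in ChIP Hyp (background 5.18% and 9.36%), and the same genes when peaks that are at least 50% repeat-masked were removed too (background 4.08% and 7.89%). Without those on tRNA genes, Rn4.5s copies and copies of the Jarid2 sequence, 1 was left in each, Ezh2 in ChIP Norm (background 5.14%) and Phf19 in ChIP Hyp (background 9.31%), a removal chosen after the peaks were seen. Within 50 kb of a TSS there were 2 in each library, Jarid2 and Pcgf2 (background 2.71% and 3.77%).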

How the data were processed

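Peak lists of 4 ATAC-seq and 2 Tfcp2l1 ChIP-seq libraries were used as deposited, each called by the authors from 1 library with MACS2. For ATAC-seq the authors aligned reads to GRCm38 (mm10) with Bowtie2, removed distant pairs and centred reads on the Tn5 cut, which sets where narrow peaks end. The ChIP-seq sample records name Bowtie and MACS2. No source used here gives their build, and GRCm38 was taken because 165 of 393 and 125 of 612 peaks overlapped its tRNA genes. In the deposited lists the fold was taken as the ratio of pileup to local background at the summit, after 1 was added to each. The authors' MACS2 runs also gave the deposited −log10 p and −log10 q, of which only the q was used. Motif letters of 10 or more bases are given by name only. The deposited score, the −log10 q scaled and rounded down, was not used. No read counts were used, so depth came only from steps in the fold values.

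Conditions were taken from the sample labels. TSSs came from GENCODE vM21, tRNA genes and promoter windows from RefSeq (GRCm38.p6). A peak was assigned to every gene whose window it overlapped, so neighbours can share peaks. Copies of Rn4.5s and of the Jarid2 sequence were found with blastn 2.17.0 (at least 90% identity over 110 and 80 bases). Scripts used Python 3.11.15, numpy 2.4.6, pandas 2.3.3, scipy 1.17.1 and pysam 0.24.0, and the counting and motif search were tested on simulated data. The rule for genes described with values took Ezh2, Jarid2, members open in some libraries only, members near a ChIP-seq peak, and the 3 with the most regions and with the strongest and weakest promoters; values of other members open in all 4 libraries (Eed, Aebp2, Rnf2, Cbx8, Rybp, Phc2 and Asxl1) fall outside this rule and were chosen after they were seen. The members and lists were chosen with earlier results of these data known. Alternatives covered peak thresholds, lists of equal length, TSS windows, file-name conditions, ChIP-seq distance, repeats and motif mismatches.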

Additional observations from a re-analysis of the deposited data

How the results depend on the processing

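No paired analysis was possible because the labels carry no replicate numbers and each condition has 1 library. Of the values recomputed under an alternative, 120 stayed within 1.5 times the reported count or within the interval of a reported median, and 55 did not. Intervals were not used for counts, so a count outside that range can still lie inside its interval. An example is Norm-Pro and not Norm-Sen with lists of equal length, 5 genes (14.7%, interval of the main count 1.86 to 23.7). The cause was not tested.

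With a −log10 q of at least 3, promoter peaks present in the first and absent from the second library numbered 14 for Norm-Sen and Hyp-Imm (41.2%, all genes 24.7%), 15 for Hyp-Pro against Hyp-Imm (44.1%, 22.5%), 2 for Hyp-Imm and Hyp-Pro (5.88%, 3.77%) and 3 for Norm-Pro and Hyp-Pro (8.82%, 11.1%), and regions away from the TSS were 15 in Hyp-Imm, 11 of them absent from Norm-Sen. With at least 5, promoter peaks were left in 19 genes in Hyp-Pro (55.9%, all genes 29.4%) and 8 in Hyp-Imm (23.5%, 11.3%). The pairs then gave 13 for Norm-Sen and Hyp-Imm (38.2%, all genes 22.2%), 0 for the reverse (all genes 1.81%), 7 for Norm-Pro and Norm-Sen (20.6%, 9.48%), 8 for Norm-Pro and Hyp-Pro (23.5%, 11.4%) and 1 for the reverse (2.94%, 6.04%). A peak in the gene or within 5 kb was left in 11 genes in Hyp-Imm. Regions away from the TSS were 11, 10, 9 and 7, with 6 in Norm-Sen and not Hyp-Imm and 3 the other way, against 38 and 22 with all peaks. For that count of genes and for the counts of regions throughout this section, no share over all genes is given. They follow the length of each peak list and cannot be read as particular to the Polycomb genes.

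With lists of equal length the pairs gave 2 for Hyp-Imm and Norm-Sen (5.88%, all genes 6.71%), 5 for Norm-Pro against Norm-Sen (14.7%, 9.60%), 3 for Hyp-Imm and Hyp-Pro (8.82%, 6.60%) and 3 for Norm-Pro and Hyp-Pro (8.82%, 10.0%), and regions away from the TSS were 33 in Norm-Pro and 27 in Norm-Sen, 22 of these absent from Hyp-Imm. A narrower TSS window gave 0 for Hyp-Imm and Hyp-Pro (all genes 4.97%), and a wider window, of 2 kb, gave 2 for Norm-Pro and Hyp-Pro (5.88%, 12.7%). The 5′ end alone gave 2 each (5.88%) for Hyp-Imm and Norm-Sen (all genes 4.22%), Hyp-Imm and Hyp-Pro (5.07%) and Norm-Pro and Hyp-Pro (11%).

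By the file names the pairs gave 2 for Norm-Sen and Hyp-Imm (5.88%, all genes 3.92%) and 9 for the reverse (26.5%, 23.1%), 9 for Norm-Pro against Norm-Sen (26.5%, 19.5%) with 1 reversed (2.94%, 5.52%), 3 for Hyp-Pro against Hyp-Imm (8.82%, 7.53%) with 3 reversed (8.82%, 9.31%), and 3 for Norm-Pro and Hyp-Pro (8.82%, 7.35%). Regions away from the TSS were then 36 in the Norm-Pro library, 27 in that of Norm-Sen and 57 in that of Hyp-Imm, with 20 in Norm-Sen and not Hyp-Imm and 50 the other way.

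Genes near a ChIP-seq peak were 2 in ChIP Norm and 2 in ChIP Hyp within 50 kb, 2 and 3 without peaks on tRNA genes, 2 and 3 without those and peaks at least 50% repeat-masked, and 1 and 1 without peaks on tRNA genes, Rn4.5s copies and copies of the Jarid2 sequence, the last chosen after seeing the data. With at most 1 mismatch the Tfcp2l1 consensus was in 0 ChIP Norm peaks near these genes (1.04% of the 383 peaks on the chromosomes). With at most 3 it was in 15 of their ATAC-seq regions (7.11%, all regions 6.63%) and 1 ChIP Hyp peak (12.5%, against 13.1% of the 596 on the chromosomes).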
